A study of Drosophila melanogaster with 7 samples.

Results

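The 44 genes described here encode ligands, receptors and cytoplasmic effectors of axon guidance together with organizers of synapses in Drosophila melanogaster. They were chosen by name from 8 families, the semaphorins and plexins, Slit and its Robo receptors, the netrins and their receptors, the Eph and Ryk receptors, the receptor tyrosine phosphatases, the teneurins and leucine-rich repeat proteins, the cadherins, and neurexin with the neuroligins, and 3 cytoplasmic effectors were added. All 44 symbols were found among the 17753 genes of the count table. The rule that chose them used no measured value, although earlier results of these data were known when they were chosen.

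RNA-seq was performed on 7 primary neuron cultures of 1 condition, the w1118 control, without any treatment. Each culture was started from the nervous systems of 3 third-instar larvae and kept for 7 days in vitro. Since no cell type was purified, a sample held neurons along with other cells. As all cultures belonged to the same group, no genotype or treatment was compared, and the data give the level of each gene, its spread between cultures and its level relative to related genes. The labels do not say whether cultures came from separate dissections, so spread between them may in part be technical. Cultures are called A to G here by rising total count, a name without further meaning.

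Growing axons are steered by ligands in their surroundings that are read by receptors on the growth cone. Semaphorins signal through plexins, Slit repels axons through Robo receptors, and netrins attract through Frazzled or repel through Unc-5, while cytoplasmic effectors pass these signals on to actin and microtubules. After an axon has arrived, adhesion proteins such as teneurins, cadherins and leucine-rich repeat proteins help to match partners, and neurexin and neuroligins organize the synapse from its opposite sides.

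Total counts ranged from 21178515 to 33891136 per culture, and 9476 of 17753 genes (53.4%) had at least 10 counts in every culture, which is called detected below. Summed neuron markers, led by elav, brp and futsch, lay at 5661 to 7393 CPM (read counts scaled to the same total in each library), against 126 to 191 CPM for glial markers, 268 to 364 CPM for neuroblast and division markers and 29.9 to 66.9 CPM for hemocyte markers. These sums were not scaled for length, and single genes dominated 2 of them. In the neuroblast and division sum, with a mean of 307 CPM, PCNA held 199 CPM. The neuroblast genes dpn, ase, mira and wor had means of 3.66 to 14.5 CPM. Of the neuron sum, with a mean of 6672 CPM, futsch held 4191 CPM. Culture D stood apart. It held 1403 CPM of photoreceptor genes and 742 CPM of yolk protein genes, against 118 to 358 CPM and 24.6 to 239 CPM in the other 6 cultures. No count is tied to a cell type in bulk RNA, so fewer cells of a type and less RNA per cell cannot be told apart in any level below.

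Nearly all guidance genes were expressed in these cultures. Of the 44 genes, 43 were detected, against 53.4% of all genes, and each of the 44 had at least 1 count in every culture. The exception was Sema5c, a transmembrane semaphorin with thrombospondin repeats, with 1.56, 0.199, 3.31, 4.73, 1.82, 1.54 and 2.27 CPM in cultures A to G. The lowest of these values stood for 5 counts. Together the 44 genes took 10238 ± 448 CPM (SD, n = 7), or 1.02% of all counts, and PlexA, stan and Mical held 31.5% of that sum. The median gene of the set had a mean of 138 CPM, 27 had over 100 CPM, PlexA and stan were highest, and Sema5c, NetA and Nlg1 had under 5 CPM.

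Levels were compared between genes as CPM per kilobase of exon, since long transcripts collect more reads. On this scale the 43 detected genes had a median of 21.3, against 12.5 over the 9403 detected genes with a known exon length, and 34 of the 43 lay above that median. PlexA led with 107 ± 4.61 (SD, n = 7), followed by stan at 83.5 ± 4.91, Mical at 59.3 ± 3.88, Nrx-1 at 50.7 ± 3.36 and trio at 50.4 ± 2.41. The lower end was formed by NetA at 0.878 ± 0.230, Sema5c at 0.503 ± 0.331 and Nlg1 at 0.205 ± 0.0981. The levels thus spanned 519-fold, but the middle of the order was dense: of the 43 neighbouring pairs in it, 30 differed by less than the larger of their SDs. PlexA, stan and Mical were each separated from their neighbours by more than that.

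**Figure D1:**
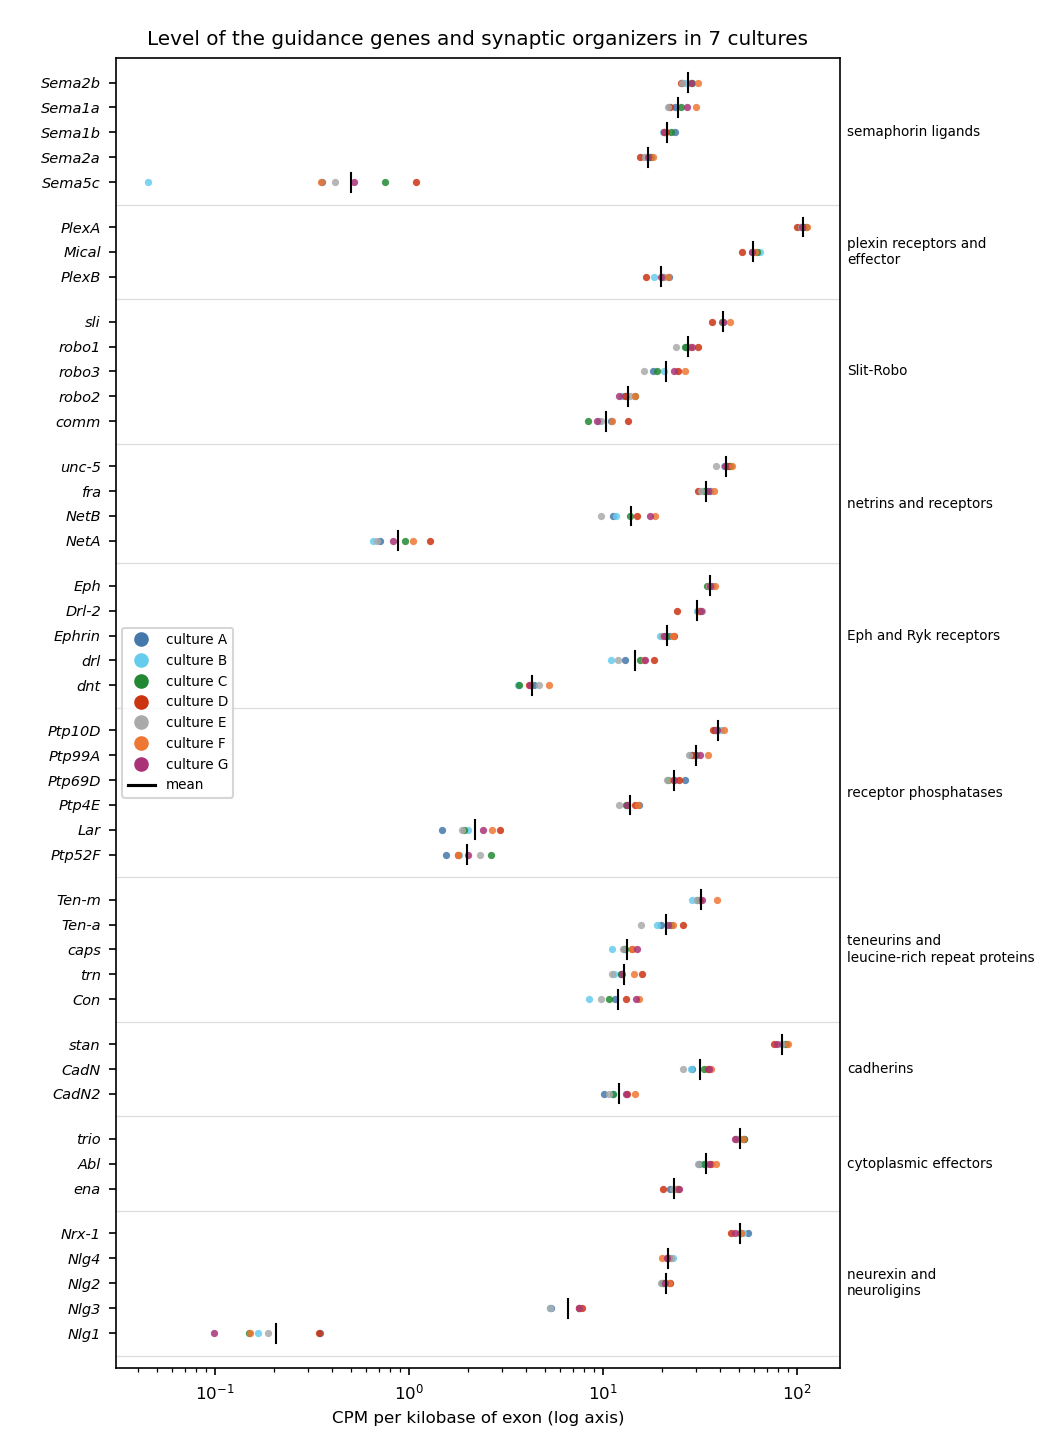
CPM per kilobase of exon on a log axis for the 44 genes grouped by role, with 1 point per culture and a black line at the mean. PlexA and stan lie furthest to the right, most genes fall near the median of 21.3, and Nlg1, Sema5c and NetA lie apart at the left. Sema5c and Nlg1 have the widest scatter.

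Among the semaphorins, the transmembrane ligands Sema1a and Sema1b and the secreted ligands Sema2a and Sema2b were all detected. Their means were 16.9 to 27.2 CPM per kilobase, against a median of 12.5 over detected genes. With the lowest, the median and the highest of the 7 cultures given in that order here and for the genes below, Sema1a had 219, 238 and 306 CPM and Sema1b had 93.2, 94.4 and 107 CPM. Per kilobase, Sema1a exceeded Sema1b by 1.14-fold, higher in 6 of 7 cultures (exact two-sided sign-flip permutation test over the cultures, p = 0.0313, adjusted p = 0.0344 over 22 family pairs), a difference that missed the threshold of 0.05 when the longest transcript was taken as length (adjusted p = 0.0688), or when any culture other than A was left out. The secreted pair was more clearly separated. Sema2b had 129.7, 137 and 160.1 CPM, Sema2a had 64.8, 71.2 and 75.4 CPM, and Sema2b was 1.60-fold higher per kilobase in 7 of 7 cultures (exact p = 0.0156, adjusted p = 0.0181). An exact p of 0.0156 is the smallest that 7 cultures allow, and it recurs below for each pair with the same sign in every culture.

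The plexins, receptors for semaphorins, were far apart in level. PlexA, which reads Sema1a, had 1058, 1128 and 1192 CPM, and PlexB, which reads the secreted Sema2 ligands, had 117, 142 and 155 CPM. Per kilobase the values did not overlap, and PlexA was 5.40-fold higher in 7 of 7 cultures (exact p = 0.0156, adjusted p = 0.0181). Mical, an actin-oxidizing enzyme that acts downstream of PlexA, had 846, 965 and 1047 CPM, lowest in culture D. PlexA and PlexB were lowest in the same culture, at 1058 and 117 CPM. Of the 44 genes, 12 were lowest in D and 11 were highest there. Both plexin genes lie on chromosome 4, PlexA at chr4:1009895-1027101 and PlexB at chr4:32478-43778 (build dm6), as do Eph and Ephrin. These 4 genes compare with 0.960% of detected genes on that small chromosome.

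In the Slit pathway, the ligand sli was higher per kilobase than each of its receptors, at 41.2 ± 2.56, with 351, 398 and 435 CPM. Among the receptors, robo1 had 161, 188 and 209.9 CPM, robo3 had 115, 146 and 187 CPM, and robo2 had 74.6, 81.0 and 90.9 CPM. The order robo1 over robo3 over robo2 held in 7 of 7 cultures for each step, by 1.32-fold and 1.56-fold per kilobase (exact p = 0.0156, adjusted p = 0.0181 for both). Both calls depended on the length used. The first missed the threshold with the longest transcript as length (log2 difference 0.18, adjusted p = 0.0543). The second missed it when the 1241 exon bases that robo2 shares with the same-strand lncRNA:CR44898, which had no count, were left out (log2 difference of robo2 to robo3 -0.32, adjusted p = 0.0516). The gene comm, whose product keeps Robo away from the axon surface, was the lowest of the pathway with 20.8 to 33.6 CPM.

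The netrin genes NetA and NetB lie near each other on chromosome X but were read at very different levels. NetB had 92.1, 94.8, 112, 122, 79.7, 150.1 and 143 CPM in cultures A to G, while NetA, at 2.36, 2.19, 3.19, 4.28, 2.28, 3.49 and 2.74 CPM in cultures A to G, was detected at 50 counts or more. Per kilobase NetB exceeded NetA 15.9-fold in 7 of 7 cultures (exact p = 0.0156, adjusted p = 0.0181). Both receptors were above either ligand on this scale, with unc-5 at 43.1 ± 2.60 and fra at 33.8 ± 2.17, and unc-5 was 1.28-fold higher than fra in 7 of 7 cultures (the same p-values). In CPM, unc-5 ranged from 199.7 to 242 CPM and fra from 195 to 235 CPM.

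Eph, the single Eph receptor tyrosine kinase of the fly, had 196, 203 and 216 CPM, the narrowest range of the set relative to its mean, with a coefficient of variation of 3.16%. Its ligand Ephrin had 104, 112 and 123 CPM, so that the receptor was 1.67-fold higher per kilobase. Of the Ryk-type receptors, which bind Wnt5, Drl-2 exceeded drl 2.10-fold and drl exceeded dnt 3.38-fold per kilobase. Per kilobase the values of the 3 genes did not overlap. In CPM, Drl-2 had 189, 182, 187, 145, 195, 185 and 192 CPM in cultures A to G, drl had 33.9 to 56.7 CPM and dnt had 9.58 to 13.9 CPM. All 3 of these differences had the same sign in 7 of 7 cultures (exact p = 0.0156, adjusted p = 0.0181).

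Receptor tyrosine phosphatases, which steer motor and photoreceptor axons, were led by Ptp10D at 38.9 ± 1.80 CPM per kilobase, followed by Ptp99A at 30.1 ± 2.39 and Ptp69D at 23.3 ± 1.79. Ptp10D had 320.4, 334 and 367 CPM, and was 2.82-fold higher per kilobase than its close relative Ptp4E in 7 of 7 cultures (exact p = 0.0156, adjusted p = 0.0181). Ptp52F was low, with 7.13 to 12.1 CPM. The count of Lar cannot be read in the same way. The annotated gene CG46244 lies on the same strand and covers 8637 of the 10337 exon bases of Lar, and it had 0 counts in all 7 cultures. Reads in shared bases may therefore be missing from both genes. Lar had 15.2, 20.7, 19.9, 30.4, 19.4, 27.5 and 24.9 CPM in cultures A to G, or 2.19 CPM per kilobase of all its exons but 13.3 per kilobase of its 1700 unshared bases. Its counted level lay below those of Ptp69D and Ptp99A on either length. Log2 differences were -3.44 and -3.81 on all exons and -0.84 and -1.21 on unshared bases (exact p = 0.0156, adjusted p at most 0.0191). Neither length restores reads that may be missing, so these values cannot decide whether Lar RNA was lower.

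Teneurins and leucine-rich repeat proteins act in partner matching at neuromuscular and olfactory synapses. Ten-m had 401, 376, 408, 415, 401, 503 and 425 CPM in cultures A to G, and was 1.53-fold higher per kilobase than Ten-a, which had 337, 324, 382, 440.5, 268, 388 and 368 CPM in cultures A to G (7 of 7 cultures, exact p = 0.0156, adjusted p = 0.0181). The leucine-rich repeat genes caps and trn, close relatives within the family, lay at nearly the same level. Per kilobase caps had 13.3 ± 1.29 and trn 12.8 ± 1.66, and caps was higher in 4 of 7 cultures (ratio 1.04, exact p = 0.359, adjusted p = 0.359), with a log2 difference of 0.05 ± 0.14 (SD, n = 7). Con, another gene of this type, had 68.7, 50.5, 63.7, 77.5, 57.8, 91.1 and 88.1 CPM in cultures A to G.

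The atypical cadherin stan, also called Flamingo, was among the most abundant genes with 1025, 1133 and 1212 CPM. It exceeded the classical cadherin CadN 2.65-fold per kilobase, and CadN exceeded its tandem neighbour CadN2 2.63-fold (7 of 7 cultures, exact p = 0.0156, adjusted p = 0.0181 for both). CadN had 371, 476 and 517 CPM and CadN2 had 80.7, 90.1 and 117 CPM. The paralogs adjoin on chromosome 2L, at chr2L:17647053-17778340 and chr2L:17786971-17875247, and how reads matching both were counted is not given in the sources used here.

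Of the cytoplasmic effectors, trio, whose product acts downstream of guidance receptors, had 538, 571 and 597 CPM. The tyrosine kinase gene Abl had 395, 428 and 488 CPM, and ena, encoding an actin regulator that Abl phosphorylates, had 124, 144 and 149 CPM. For context, 22 further genes that act with these receptors were counted. Of them 21 were detected, 18 lay above the median detected gene per kilobase, and their median was 34.8 CPM per kilobase. The receptor guanylyl cyclase gene Gyc76C was the lowest of them at 0.0237 ± 0.0354 and had no count in at least 1 culture.

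At the synapse, Nrx-1, the presynaptic neurexin, had 487, 547 and 599.7 CPM, and was above all 4 neuroligin genes per kilobase. No difference between Nlg2 and Nlg4, with 112 to 125 CPM and 125 to 143 CPM, was called. Per kilobase Nlg2 was the higher in 2 of 7 cultures (ratio 0.972, log2 difference -0.04 ± 0.09, SD, n = 7, exact p = 0.297, adjusted p = 0.311). Nlg3, with 35.9, 35.2, 50.0, 51.4, 35.3, 49.7 and 50.0 CPM in cultures A to G, was 3.23-fold below Nlg2 and 3.32-fold below Nlg4. Nlg1, an organizer of neuromuscular synapses, was nearly silent, with 2.08, 0.994, 0.895, 2.05, 1.12, 0.908 and 0.590 CPM in cultures A to G and 112-fold below Nlg2 (7 of 7 cultures for these 3 pairs, exact p = 0.0156, adjusted p = 0.0181). It was highest in cultures A and D. The summed muscle markers were 391 CPM in D, against 152 to 214 CPM in the other 6, and 191 CPM in A. Their part in the level of Nlg1 was not tested.

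**Figure D2:**
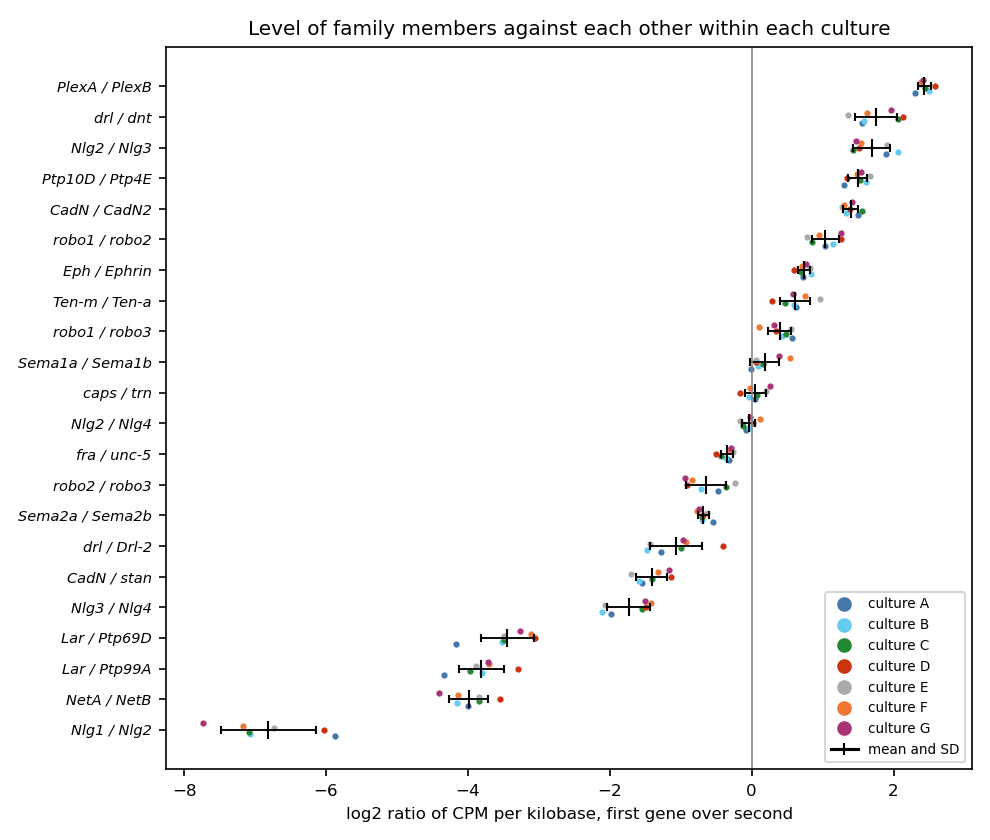
Log2 ratio of CPM per kilobase between 2 genes of a family in each culture (colored points), with the mean and SD in black and the line of equal level in grey. Ratios of 20 of the 22 pairs were called at an adjusted p under 0.05, the pairs caps / trn and Nlg2 / Nlg4 lie across the grey line, and the Lar ratios use all its exon bases.

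Over the 22 family pairs, 20 were called at an adjusted p under 0.05, and 19 had the same sign in 7 of 7 cultures. The test asks only whether a ratio was repeatable between cultures. An error in the assumed exon length is common to all cultures and does not enter it.

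The RNA of ligands, receptors and effectors was next compared across the 7 cultures for 23 pairs of known partners or close relatives. None was called at an adjusted p under 0.05, 1 had an unadjusted exact permutation p under 0.05 for Pearson's r, and 16 of 23 coefficients were positive. Positive signs were common in the whole set. Of all 903 pairs of the detected genes, 300 had a negative r, and the median r was 0.24. The signs were not stable, as 11 of the 23 coefficients changed sign without the 2 cultures farthest from the median of the first gene. The pair with an unadjusted p under 0.05 for r was Sema2a with PlexB (r = 0.90, exact p = 0.00417, adjusted p = 0.0958, rho = 0.86, exact p = 0.0238, adjusted p = 0.262, and r = 0.76 without the 2 cultures farthest from the median of Sema2a). By r, Sema1a with PlexA followed (r = 0.74, exact p = 0.0571, adjusted p = 0.463, rho = 0.75, exact p = 0.0663, adjusted p = 0.338, and r = 0.83 without 2 cultures). The negative coefficient of largest size was that of Nrx-1 with Nlg3 (r = -0.70, exact p = 0.0861, adjusted p = 0.463, rho = -0.82, exact p = 0.0341, adjusted p = 0.262, and r = -0.56 without 2 cultures). For rho, caps with trn also had an unadjusted exact p under 0.05 (r = 0.62, exact p = 0.145, adjusted p = 0.517, rho = 0.82, exact p = 0.0341, adjusted p = 0.262, and r = 0.95 without 2 cultures).

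The spread of the guidance genes between cultures was small, and close to that of other genes at their level. It was expressed as the biological coefficient of variation (BCV), the square root of the dispersion that remains beyond counting error, and its median was 0.105 over the 43 detected genes against 0.153 over all detected genes. Low genes have a larger BCV, and relative to the trend fitted over level the medians were nearly the same, 0.898 and 0.903. A BCV over 0.2 was found for 4 of the 43 genes, Nlg1 at 0.399, NetA at 0.307, Ptp52F at 0.208 and Lar at 0.202, against 35.3% of all detected genes. Without culture A or without culture D the count fell to 2, as Lar and Ptp52F passed below 0.2. Above the fitted trend lay 11 of the 43 genes, against 27.1% of all detected genes. NetB, Con, robo3, Ten-a and Lar had more than 1.2 times the trend value, with BCVs of 0.189, 0.180, 0.149, 0.133 and 0.202, as did 8.34% of all detected genes, at a limit set after values had been seen. At the other end, trio, PlexA and Eph had BCVs of 0.0836, 0.0854 and 0.0847.

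**Figure D3:**
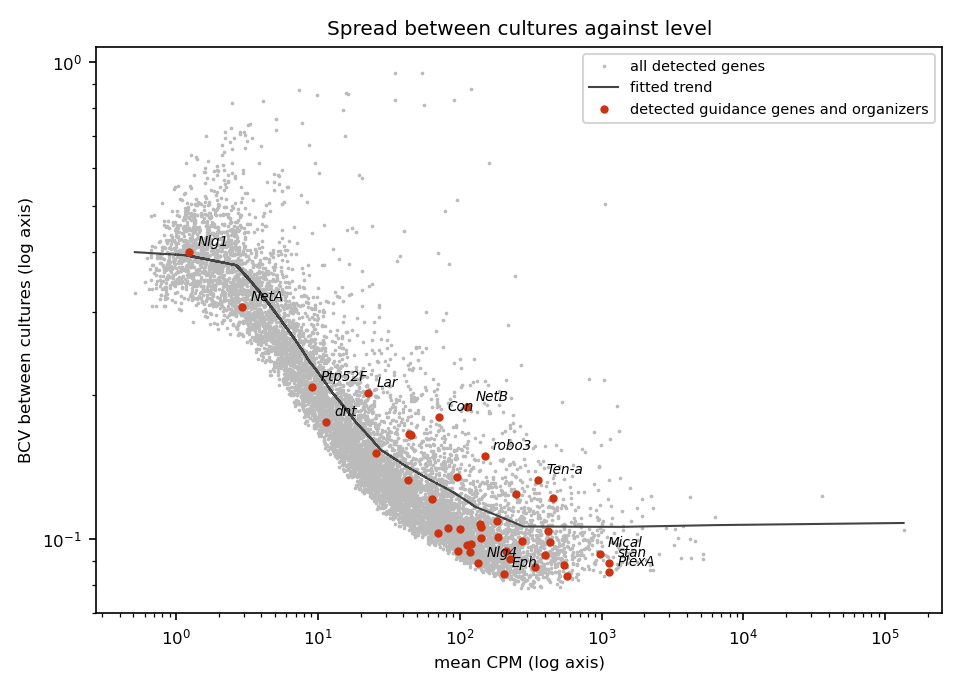
BCV between the 7 cultures against mean CPM, both on log axes, for all detected genes (grey) and the 43 detected guidance genes and organizers (red), with the fitted trend as a line. Most red points lie on or under the trend, while NetB, Con, robo3, Ten-a and Lar lie above it at more than 1.2 times.

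Of the more variable genes, NetB, Con, robo3 and Lar shared a pattern that Ten-a did not. Genes below the fitted BCV trend, robo1, caps, trn, Ten-m and Abl, shared it too. For 12 of the 43 genes, cultures D, F and G held the 3 highest CPM values, against 6.15% of all detected genes. They were NetB, Con, robo1, robo3, drl, Lar, Ten-m, caps, trn, CadN, CadN2 and Abl, that is, a ligand, receptors, adhesion proteins and a kinase of several pathways. For NetB the 3 cultures held 122, 150.1 and 143 CPM and the other 4 held 79.7 to 112 CPM, and for Con they held 77.5, 91.1 and 88.1 CPM against 50.5 to 68.7 CPM. CadN had 497, 517 and 504 CPM in them against 371 to 476 CPM. The pattern was seen after values were known and is a description of these cultures without a test. The count was 15 with TMM-adjusted library sizes, against 7.56% of genes, and 14 with DESeq2 size factors, against 7.75%. Yolk protein genes were highest in the same cultures, with 742, 124 and 239 CPM in D, F and G against 24.6 to 86.8 CPM in the others. The fat body sum followed, with 575, 145 and 172 CPM in D, F and G against 48.3 to 104 CPM. The hemocyte sum did so by little in F and G, with 66.9, 35.07 and 35.11 CPM against 29.9 to 33.3 CPM. Both orders rested on 1 gene, apolpp with 558, 139 and 163 CPM and Pxn with 33.6, 20.9 and 21.2 CPM. No other gene of these lists had its 3 highest values in D, F and G. Hml was lowest in G at 10.4 CPM and srp was lowest in F at 0.838 CPM. Detected were 2 of 7 fat body and 3 of 6 hemocyte genes. The sums of these 3 lists were highest in D. Those of the photoreceptor, muscle and glial lists were also highest in D but did not share the order of cultures. They were 284, 214 and 161 CPM in E against 244, 195 and 154 CPM in F. Of the 12 guidance genes, 4 were highest in D (robo1 with 209.9 CPM, drl with 56.7, Lar with 30.4 and trn with 53.0), 7 in F and 1 in G. Summed neuron markers were 6514, 7393 and 7304 CPM in D, F and G, and 5661 to 7266 CPM in the others. The part of these cell types in the pattern was not tested.

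**Figure D4:**
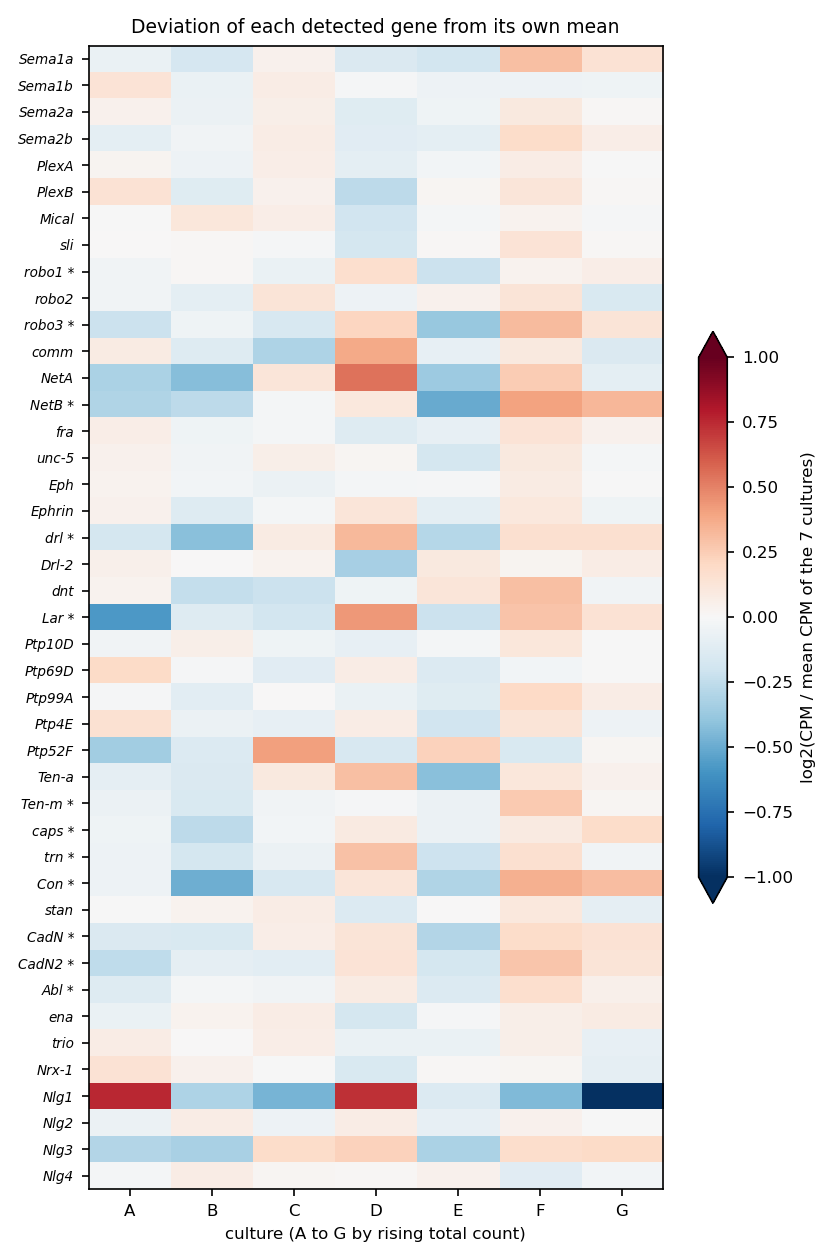
Log2 of each culture's CPM over the mean of the 7 cultures for the 43 detected genes in order of role, from blue (below the mean) to red (above), with asterisks on the 12 genes whose 3 highest values were in cultures D, F and G. Red cells gather in columns D, F and G for NetB, Con, robo3, drl and CadN2, and PlexA, Eph and Nlg2 stay pale throughout.

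A single culture stood far from the others, with a gap to the nearest value above Dixon's 95% limit, for 2 of the 43 genes, against 6.72% of all detected genes. Drl-2 was low in culture D, at 145 CPM against 182 to 195 CPM in the other 6. Ten-m was high in culture F, at 503 CPM against 376 to 425 CPM. Only Drl-2 met the same limit with TMM-adjusted or DESeq2 library sizes. Of the 637 genes with such a culture over the whole table, 287 stood apart in D and 75 in F.

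It was then asked whether the guidance genes moved with glial or progenitor RNA between cultures. With the mean log2 level of 8 glial genes as predictor, edgeR's quasi-likelihood test called 0 of the 43 genes, against 0.0528% of detected genes rising and 0% falling. At an unadjusted p under 0.05, 2 of the 43 genes passed, against 6.05% of detected genes. These were Drl-2 and PlexB, with slopes of -0.58 and -0.53 log2 units per unit of the glial score (edgeR adjusted p = 0.783 and 0.804). Without culture D, where the glial sum was highest at 191 CPM, 0 of the 43 genes passed unadjusted, against 3.67% of genes tested. Without culture A 5 of the 43 passed, against 5.76%, without culture E 4 passed, against 10.8%, and without culture C 1 passed, against 5.39%. DESeq2 called 0 of the 43 and 37 of all detected genes, with 2 of the 43 and 6.41% of all detected genes at an unadjusted p under 0.05. With 10 neuroblast and division genes as predictor, edgeR called 0 of the 43 genes and 0 of all detected genes, with 0 of 43 at an unadjusted p under 0.05, against 4.31% of detected genes (DESeq2 called 0 of the 43, with 0 of the 43 and 4.55% of detected genes unadjusted). That fit rested on cultures E and F, which had the highest scores, and without the 2 cultures farthest from the median 9 of the 43 genes had an unadjusted p under 0.05, as did 11.2% of all genes tested. In that fit edgeR called 16 of all 9624 genes and none of the 43, whose lowest adjusted p was 0.0880. The score ran only from 3.69 to 3.77 in the cultures left, against 3.69 to 4.09 in all 7, so those slopes rest on a narrow range.

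The set also shared features of gene structure. The median exon length was 6292.5 bases, against 2161 over all detected genes, and the median of the longest annotated 3′ UTR was 1935 bases, against 328. More than 1 length of 3′ UTR was annotated for 36 of the 44 genes, against 37.8% of the 8745 detected genes with an annotated 3′ UTR. By the longest annotated 3′ UTR of each gene, Abl led with 6908 bases, followed by Mical at 6236 and Sema1a at 5933. Ptp52F was lowest on this measure at 130. Counts per gene do not show which 3′ UTR a transcript carried. Exon bases were shared with a same-strand gene for 6 of the 44 genes and with an opposite-strand gene for 5, and leaving out the same-strand shared bases changed no call of a family pair other than that of robo2 with robo3.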

How the data were processed

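The deposited table holds whole-number counts per gene, made by the authors with featureCounts, unpooled and without normalization, for 7 control cultures. The submitters' processing notes name the build dm6. The sources used here do not give the aligner, strand setting or annotation. How reads of overlapping or antisense genes were counted is therefore not known. The labels name ribosomal RNA depletion where the methods name a stranded mRNA kit. The 8 other columns of per-sample values in the deposited table match no sample described here and were left out. The 7 columns could be tied to the condition but not to single replicates.

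CPM were derived here from the deposited counts by library total (21178515 to 33891136). Exon and 3′ UTR lengths came from Ensembl release 115 (dm6 coordinates), which matched 17626 of 17753 identifiers. Detection required 10 counts in every culture. Family pairs were tested by exact sign-flip permutation, two-sided, of log2 CPM per kilobase, and partner relations by exact permutation of all 5040 pairings of log2(CPM + 1), each adjusted by the Benjamini-Hochberg method. BCV and score fits used edgeR 4.0.16 (TMM, quasi-likelihood, adjusted over all 9476 detected genes) in R 4.3.3, and DESeq2 1.42.0 was an alternative. All 44 genes are named, and by rule the partners with the highest and lowest level, of which the highest is not reported here. The lists of 8 neuron, 8 glia, 10 neuroblast and division, 6 hemocyte, 8 muscle, 7 fat body, 13 photoreceptor and 3 yolk protein genes, the members and the pairs were chosen with earlier results of these data known. Fat body genes had 48.3 to 575 CPM, highest in culture D. In each of the 21 possible pairs, libraries differed beyond counting error, so none was counted as 1 library deposited more than once, which does not show that the cultures were separate dissections. Alternatives were other scalings, filters, lengths and pseudocounts, and each culture left out. No nucleotide or protein sequence was used.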

Additional observations from a re-analysis of the deposited data

Results flagged for a closer look

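The level of Drl-2 in culture D lay at 145 CPM, and those of the other 6 cultures lay between 182 and 195 CPM, a gap of 0.746 of the whole range. Ten-m had 503 CPM in culture F and 376 to 425 CPM in the other 6, with a gap of 0.615 of the range. Both gaps were above Dixon's 95% limit for 7 samples. Chance alone flags about 1 in 20 groups of values, and 2 of 43 genes were flagged here.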

How the results depend on the processing

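No paired analysis was possible because all cultures belonged to 1 condition. Detection of the 44 genes ranged from 41 (100 counts in every culture) to 44 (1 count in every culture, or 10 counts in at least 4). The median level stayed at 136 to 139 CPM with each culture left out. The number of genes with a BCV over 0.2 ranged from 2 to 5 with each culture left out, with 2 without culture A and 2 without culture D. Genes with 1 outlying culture numbered 1 with TMM and 1 with DESeq2 library sizes, and 3 on the log2 scale, which added Mical. Called family pairs numbered 19 to 20 with each culture left out. Only the uncalled Nlg2 to Nlg4 difference changed sign, to a log2 value of 0.0224 with the longest transcript as length. The count of partner relations and of genes called in either score fit was 0 under all alternatives run. Low counts limit Sema5c, Nlg1 and NetA. Where a value moved, the cause was not tested.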
